A study of Mus musculus with 2 samples.

Results

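The genes described here are 10 genes best known from eosinophils: the granule peroxidase Epx, the major basic proteins Prg2 and Prg3, the ribonucleases Ear1, Ear2, Ear6, Ear10 and Ear11, and the surface receptors Siglecf and Ccr3. They were chosen by name, through the non-control probes that carry one of these names in the array annotation, where Siglecf is written Siglec5. They have 11 of the 55659 probes and 10 of the 34732 names on the array. Siglecf has 2 probes and each other gene has 1. The gene named Ear11 on the array is Rnase2a in RefSeq.

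The study asked what GATA1 contributes to mast cells. Marrow cells of C57BL/6 mice were grown into mast cells in culture, first for 2 weeks in interleukin 3 (10 ng/mL) and then for 2 weeks in interleukin 3 plus stem cell factor (10 ng/mL), the main growth factor of mast cells. They were transfected with 200 pmol of either a control siRNA or an siRNA against GATA1, and RNA from 2 animals was pooled for each siRNA. Each pool was hybridised to 1 Agilent one-colour array, so each group is 1 array and no difference below has a replicate check or a p-value. Strain and growth factors are the same in both groups. The labels name no sort of the transfected cells, and a lower signal in such bulk RNA can come from fewer cells of a type or from less RNA per cell, and these cannot be told apart.

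Eosinophils store cationic proteins in their granules. Major basic protein damages membranes, eosinophil peroxidase makes hypohalous acids from hydrogen peroxide, and the eosinophil-associated ribonucleases (Ear genes) are the mouse relatives of human eosinophil cationic protein and eosinophil-derived neurotoxin. GATA1 is a zinc finger transcription factor that binds the letters GATA. Mice that lack a paired GATA site in the Gata1 promoter form no eosinophils. Some of these transcripts are not restricted to eosinophils: basophils also make major basic protein, and macrophages make some of the Ear ribonucleases.

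The probes that report the 3 genes with the largest measured decreases among the granule proteins are shown first, because each value below is the brightness of a single 60-base probe. They are written in the direction of the array annotation. None shares a run of more than 14 bases with a probe of any other gene on the array.
Epx: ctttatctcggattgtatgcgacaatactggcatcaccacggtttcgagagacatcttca
Prg2: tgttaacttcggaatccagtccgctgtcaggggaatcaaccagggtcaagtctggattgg
Prg3: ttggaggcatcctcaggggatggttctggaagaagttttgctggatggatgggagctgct

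The Ear genes are near copies of one another, so their probes can pick up each other's transcripts. In capitals is the longest run that a probe shares with the probe of another Ear gene: 20 bases for Ear1 and Ear7, 23 bases for Ear10 and Ear12, and 23 bases for Ear2 and Ear6, of which only the stretch around the run is shown.
Ear1: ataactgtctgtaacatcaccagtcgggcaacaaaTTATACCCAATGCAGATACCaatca
Ear7: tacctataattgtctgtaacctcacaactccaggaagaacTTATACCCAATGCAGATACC
Ear10: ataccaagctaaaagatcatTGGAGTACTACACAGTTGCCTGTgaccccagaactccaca
Ear12: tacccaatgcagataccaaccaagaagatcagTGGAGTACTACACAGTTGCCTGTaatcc
Ear2: tttGCTGAATAGATCTTTTCTAATTA
Ear6: tcaGCTGAATAGATCTTTTCTAATTAataa
The Ear1 probe also shares 19 bases with the Ear12 probe. How much each probe's signal owes to a related transcript cannot be read from these arrays, so the values of single Ear genes are uncertain in this respect. The Ear11 probe shares at most 13 bases with any other gene's probe.

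The scanner software called 52.7% of the array's probes well above background with control siRNA and 55.2% with GATA1 siRNA, and no spot was saturated. Signals are in scanner units. A level is a signal divided by the 75th percentile of its array (303.2 with control, 340.0 with GATA1 siRNA), and a difference is the log2 level with GATA1 siRNA minus the log2 level with control siRNA. A probe counts as measured where it was well above background on both arrays, which held for 28736 probes. The target itself was lower: Gata1 had a signal of 16415 with control siRNA and 3930 with GATA1 siRNA, a difference of -2.23 or 4.68-fold lower. The levels of different probes are not compared with each other, since brightness depends on a probe's sequence.

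Transcripts of eosinophil granule proteins were present in these mast cell cultures on both arrays, and most were somewhat dimmer after GATA1 siRNA. Of the 11 probes, 10 were measured, which covers all 10 genes. Of these 10 differences, 8 lay below 0 and 2 above it, between -0.85 for Epx and 0.60 for Siglecf, with a median of -0.42. Over all measured probes the median was 0.01 with an SD of 0.298, and 47.8% lay below 0. None of the 10 was 2-fold lower or higher, where 0.612% of all measured probes were 2-fold lower, 0.338% were 2-fold higher and 0.95% were either. At 1.5-fold, 2 of the 10 were lower (Epx and Prg3) and 1 was higher (Siglecf), against 3.19% and 1.92% of all measured probes. Past the error that the scanner software gives for each probe, 7 of the 10 were lower and 1 was higher, against 15.9% and 13.9% of all measured probes. Among the 10 that error ran from 0.204 to 0.346. It was close to 0.204 for the brighter probes, where it acts much like a fixed cut-off. The members were chosen with earlier results of these arrays known, so these counts describe the genes and test nothing.

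**Figure D1:**
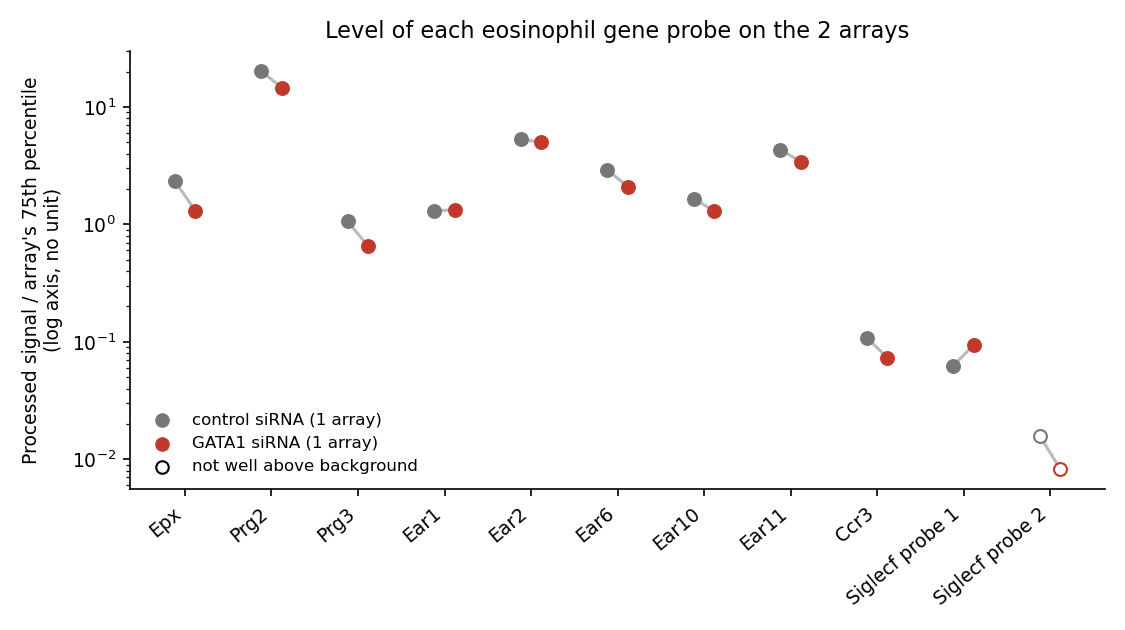
Level of each probe on the 2 arrays: the vertical axis is the processed signal divided by the array's 75th percentile (log axis, no unit), grey points are control siRNA, red points are GATA1 siRNA, and open points were not well above background. Epx goes from 2.35 to 1.31 and Prg2 from 20.4 to 14.5, Ear1 and Ear2 are nearly level, and the open points are those of the second Siglecf probe.

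Eosinophil peroxidase showed the largest difference of the group. The Epx probe (chr11:87678288-87678347, mm9, minus strand) had a signal of 713.1 with control siRNA and 444.7 with GATA1 siRNA, or levels of 2.35 and 1.31. The difference was -0.85 with an error of 0.20 as estimated by the scanner software, 1.80-fold lower. That is past its error but short of the 2-fold rule. Of all measured probes, 1.01% had a difference as low or lower. The measured probes were also divided by mean level into 10 groups of equal size. In the group that holds Epx, the SD of the differences was 0.233 and 1.67% of probes were 1.5-fold lower.

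The major basic protein genes lie next to each other on chromosome 2, and both were lower. Prg3 encodes the less basic homologue of major basic protein. Its probe (chr2:84831668-84833177, mm9, plus strand) had a signal of 321.4 with control siRNA and 220.7 with GATA1 siRNA, levels of 1.06 and 0.649. The interval in the annotation is 1510 bases long for a 60-base probe, so it is not one unbroken stretch of the genome. The Prg3 difference was -0.71 with an error of 0.21, 1.63-fold lower, and 1.97% of measured probes were as low or lower. Prg2 encodes major basic protein itself. The Prg2 probe (chr2:84822799-84822858, mm9, plus strand) gave a signal of 6176 with control siRNA and 4937 with GATA1 siRNA. Its level of 20.4 with control siRNA stood at 14.5 with GATA1 siRNA. The Prg2 difference was -0.49 with an error of 0.20, 1.40-fold lower, and 4.88% of measured probes were as low or lower. Bright probes varied less: the SD was 0.182 in the level group of Prg2 and 0.284 in that of Prg3.

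Of the 5 differences of the Ear ribonucleases, 4 lay below 0, with a median of -0.35, and those of Ear6, Ear10 and Ear11 were larger than their error. Ear6 (chr14:52474253-52474312, mm9, plus strand) had signals of 886.5 and 710.7 for control and GATA1 siRNA, levels of 2.92 and 2.09, and a difference of -0.48 with an error of 0.20. Ear10 (chr14:44500615-44500674, mm9, minus strand) had signals of 501.8 and 440.9, levels of 1.66 and 1.30, and a difference of -0.35 with an error of 0.20. Ear11, also known as a chemoattractant for macrophages, lies at chr14:51875064-51875123 (mm9, minus strand) and had signals of 1316 and 1160. Its levels were 4.34 and 3.41 and its difference was -0.35 with an error of 0.20. In fold terms these were 1.40-fold lower for Ear6, 1.28-fold lower for Ear10 and 1.27-fold lower for Ear11, sizes that 4.97%, 9.16% and 9.35% of measured probes matched or passed downwards.

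Ear1 and Ear2, whose products are granule ribonucleases, differed by less than their error. The Ear1 probe (chr14:44396709-44396768, mm9, minus strand) had signals of 395.9 with control siRNA and 453.0 with GATA1 siRNA, levels of 1.31 and 1.33, a difference of 0.03 with an error of 0.20. The Ear2 probe (chr14:44681119-44681178, mm9, plus strand) had signals of 1610 and 1702, levels of 5.31 and 5.01, a difference of -0.08 with an error of 0.20. The raw signals of both were higher on the GATA1 siRNA array, whose 75th percentile was also higher. The probes of Ear2 and Ear6 share a run of 23 bases, and one is near 0 while the other is 1.40-fold lower. Whether the Ear genes differ from each other in response was not tested, because each has a single probe on a single pair of arrays.

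The probes of related Ear genes gave a like range. Ear12 (chr14:44680899-44680958, mm9), whose probe starts 220 bases from that of Ear2, had signals of 617.8 and 555.4 and a difference of -0.32. Ear7 (chr14:52473974-52474033, mm9), whose probe starts 279 bases from that of Ear6, had signals of 224.7 and 178.8 and a difference of -0.49. These places of Ear12 and Ear7 are those the array annotation gives. Whether probes so close together read separate genes was not tested. Neither Ear4 nor Rnase2b stood well above background on the 2 arrays.

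**Figure D2:**
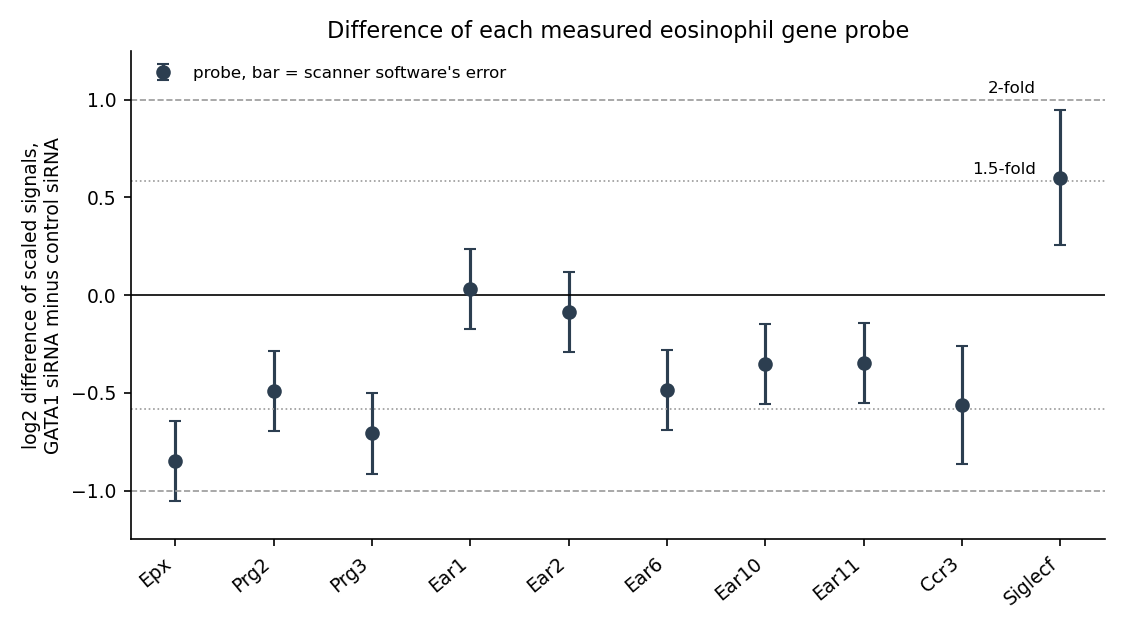
Log2 difference of each measured probe, GATA1 siRNA minus control siRNA, with bars for the error that the scanner software gives (1 array per group, so this is not a replicate error); dashed lines mark 2-fold and dotted lines 1.5-fold. Epx and Prg3 pass the lower 1.5-fold line, Siglecf passes the upper one, Ear1 and Ear2 overlap 0, and no point passes 2-fold.

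The surface receptors were dim. Their measured probes had differences of opposite sign, and both differences became smaller with another background correction. Ccr3 is the receptor for eotaxins, the chemokines that draw eosinophils into tissue. Its probe (chr9:123945225-123945284, mm9, plus strand) had a signal of 32.78 with control siRNA and 24.90 with GATA1 siRNA, levels of 0.108 and 0.0732. The Ccr3 difference was -0.56 with an error of 0.30, 1.48-fold lower, and 3.52% of measured probes were as low or lower. The SD among probes of like level was 0.404, and 6.58% of them were 1.5-fold lower. With another background correction (normexp) the Ccr3 difference was -0.23.

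Siglecf encodes an inhibitory lectin for sialic acids that is used to identify mouse eosinophils. Its probe at chr7:50614768-50614827 (mm9, plus strand) had a signal of 18.91 with control siRNA and 32.18 with GATA1 siRNA, levels of 0.0624 and 0.0946. The difference was 0.60 with an error of 0.35, 1.52-fold higher, and 1.76% of measured probes were as high or higher. It lies in the dimmest of the 10 level groups, where the SD was 0.392 and 3.48% of probes were 1.5-fold higher. The lowest signal that passed the background call was 15.2 with control siRNA. With the normexp background correction the Siglecf difference was 0.07. The second Siglecf probe (chr7:50611746-50611805, mm9), with signals of 4.80 and 2.78, did not stand well above background on any array and gives no fold. The direction of Siglecf rests on 1 dim probe: without the filter on dim probes the mean of its 2 probes was -0.17.

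**Figure D3:**
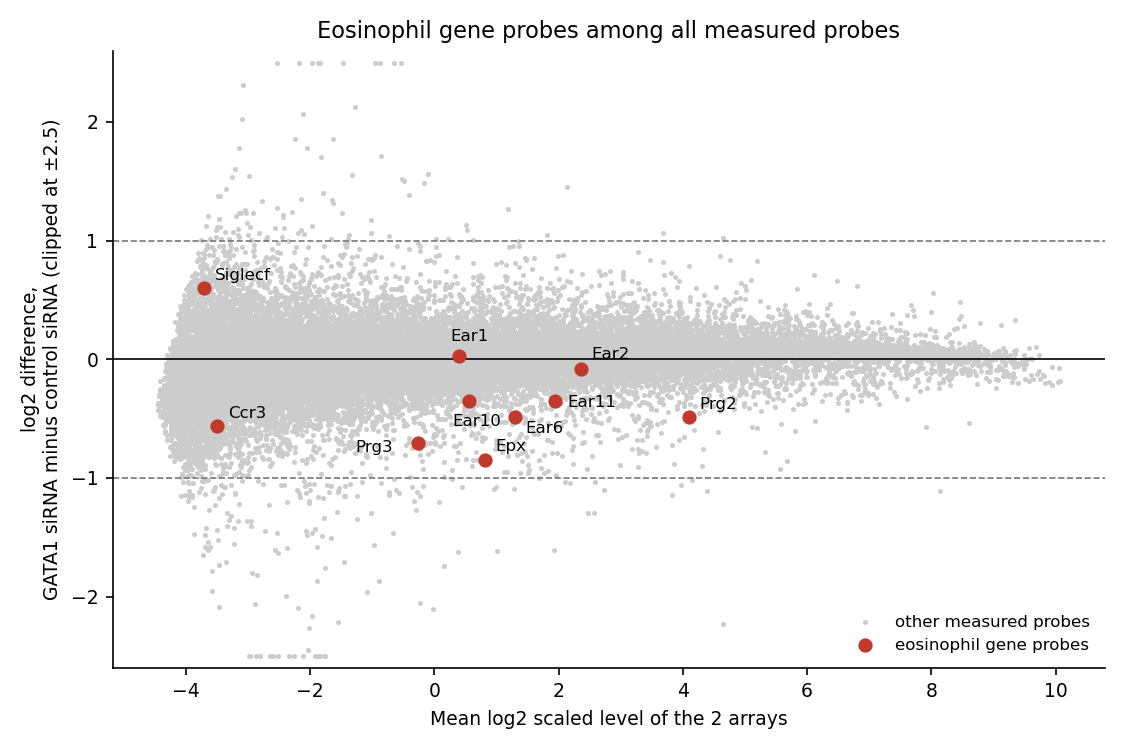
Each measured probe by the mean log2 level of the 2 arrays (horizontal axis) and by its log2 difference, GATA1 siRNA minus control siRNA (vertical axis, clipped at 2.5); grey points are all other measured probes, red points are the eosinophil gene probes, and dashed lines mark 2-fold. Siglecf and Ccr3 lie in the wide cloud at low levels, while Epx, Prg3 and Prg2 lie along the lower edge of the cloud at higher levels.

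Set against the SD of its level group, 7 of the 10 measured probes were lower by more than that SD and 1 was higher by more, against 11% and 11.5% of all measured probes. No member spot was an outlier or lay at a disturbed place of the slide. Probes printed several times on each array show how far spots of the same probe differ on this pair of arrays: the median SD of the difference over repeat spots was 0.0703 in the level group of Epx and 0.329 in that of Siglecf. These SDs cover the spots of one hybridisation and not the animals or the transfection.

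The neighbours of these genes did not all go the same way. Within 100 kb of a member's probe lay 34 other measured probes, counting those of Ear12 and Ear7. Below 0 were 16 of the 34 and above it 18, with a median of 0.03. Of the 34, 1 was 1.5-fold lower and 2 were 1.5-fold higher. Epx lies in a cluster of peroxidase genes. Mpo, the neutrophil peroxidase, had differences of 0.49 and 0.32 with its 2 probes, Lpo, the lactoperoxidase, had -0.13, and Mks1, a ciliary gene whose probe lies 1181 bases from that of Epx, had -0.09. Beside Prg2 and Prg3, the 3 probes of the ATP-gated channel P2rx3 had -0.41, -0.23 and -0.34, Slc43a3 had 0.00, and Ssrp1 had 0.19 and 0.10. The P2rx3 probes at -0.41 and -0.34 were dim, with signals of 25.98 and 21.91 and of 27.13 and 23.98. Beside Ccr3, Ccr1 had -0.03 and Ccr1l1 had 0.11. Ccr2, the receptor of monocyte chemoattractants, went the other way from Ccr3, with signals of 1233 and 2278 and a difference of 0.72. Beside Siglecf, the 2 probes of Nkg7 had 0.63, with signals of 50.97 and 88.59, and 0.06, with signals of 1997 and 2326.

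**Figure D4:**
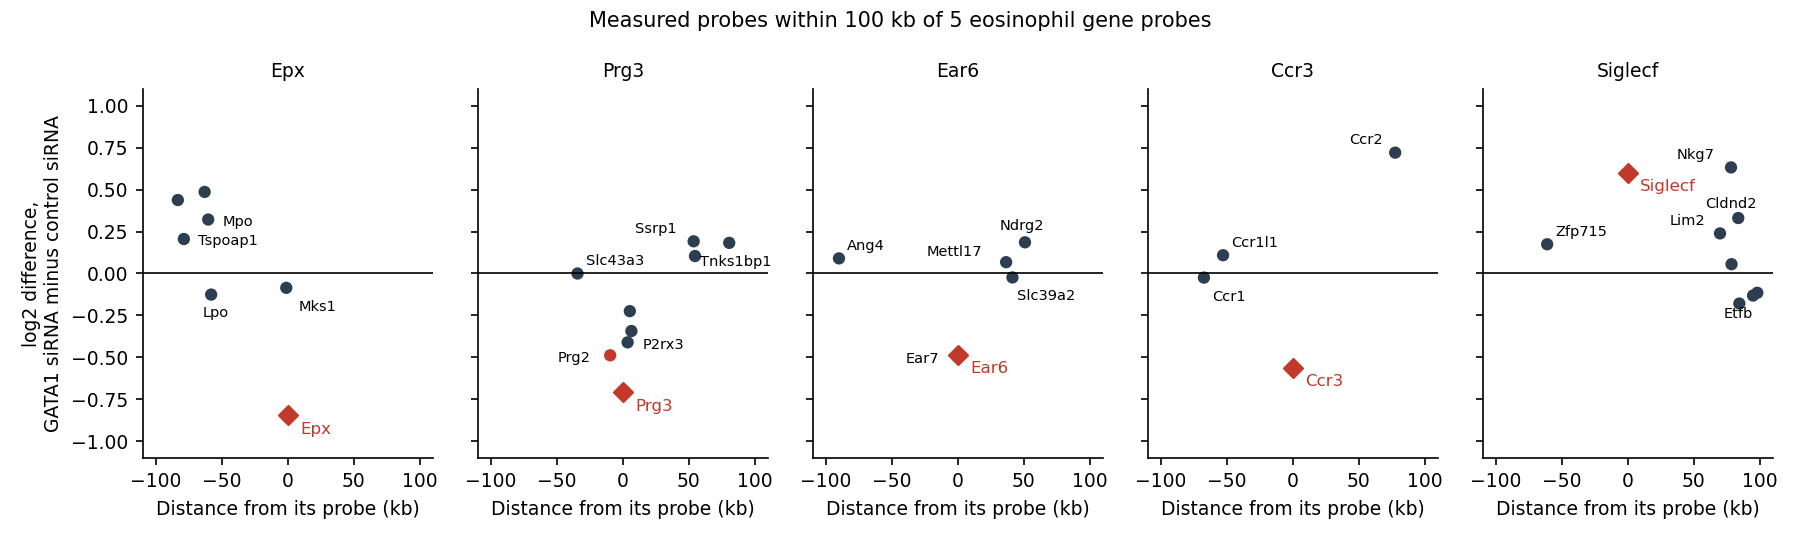
Measured probes within 100 kb of the probes of Epx, Prg3, Ear6, Ccr3 and Siglecf: the horizontal axis is the distance from the member's probe in kb, the vertical axis the log2 difference, GATA1 siRNA minus control siRNA; red diamonds are the member, red circles another member and dark circles other genes. Epx lies below its neighbours Mpo and Lpo, Ccr3 lies below Ccr1 and Ccr2, and Ear7 lies under the Ear6 diamond.

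The promoters of the members were read for GATA words, since GATA1 is the factor that was depleted. RefSeq windows (GRCm38.p6) of 250 bases before the start were found for 9 of the 10 genes, all but Prg2. The words searched on both strands were AGATAA and AGATAG, and, with T as the first letter, TGATAA as well as the variant TGATAG. Of the 32851 windows in the table, 26.5% hold at least 1 of them. Among the members, 2 of 9 do: Prg3 has TGATAA on the minus strand, read as TTATCA, 123 to 118 bases before the start, and Ccr3 has AGATAG from 64 to 59 and AGATAA from 30 to 25 bases before it, with no overlap between these matches. At least 2 such words are in 6.4% of all windows. A word is a match of letters and not a binding site, and none in a window says only that these letters are not there. The windows of Prg3 (chr2:84987965-84988214, plus strand) and Ccr3 (chr9:124021721-124021970, plus strand) are shown with the words in capitals, and that of Epx (chr11:87875537-87875786, minus strand) because Epx had the largest decrease and holds none.
Prg3 promoter: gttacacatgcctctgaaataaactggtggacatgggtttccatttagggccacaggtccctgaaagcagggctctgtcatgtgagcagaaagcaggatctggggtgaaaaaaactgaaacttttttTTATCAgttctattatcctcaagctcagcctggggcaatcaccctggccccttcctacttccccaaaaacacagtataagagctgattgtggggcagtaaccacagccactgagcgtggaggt
Ccr3 promoter: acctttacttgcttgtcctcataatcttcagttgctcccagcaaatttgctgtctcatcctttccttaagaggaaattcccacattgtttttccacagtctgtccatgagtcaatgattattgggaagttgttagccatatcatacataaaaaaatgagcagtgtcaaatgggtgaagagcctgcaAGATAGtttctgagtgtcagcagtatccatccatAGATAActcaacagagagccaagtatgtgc
Epx promoter: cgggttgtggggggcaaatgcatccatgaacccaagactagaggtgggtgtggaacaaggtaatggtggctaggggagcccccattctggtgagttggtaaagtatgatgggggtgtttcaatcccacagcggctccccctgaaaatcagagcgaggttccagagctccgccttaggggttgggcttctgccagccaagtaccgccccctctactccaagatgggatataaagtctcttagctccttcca

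The Ear promoters resemble one another closely. In pairwise alignment the windows of Ear1 and Ear2 are identical at 99.2% of aligned bases, and the pairs among Ear1, Ear2, Ear6 and Ear10 range from 92.6% to 99.2%. Ear11 is identical to the other 4 at 86.1% to 88.2%. None of these 5 windows holds any of the words. Ear1 and Ear2, the pair with the most similar windows, had differences of 0.03 and -0.08. Ear6 and Ear10, whose windows are identical to those 2 at 92.6% to 94.3%, had -0.48 and -0.35. Whether similar windows go with similar differences was not tested.

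Other genes of eosinophils, fixed as lists with earlier results of these arrays known, were spread around 0. Of 33 measured genes among 37 other eosinophil genes, 14 were below 0 and 19 above, with a median of 0.06, and none was 2-fold lower or higher. Over all 20399 measured genes 47.3% lay below 0, 0.608% were 2-fold lower and 0.294% were 2-fold higher. The interleukin 5 receptor chain Il5ra had signals of 494.8 and 494.2 and a difference of -0.17. The lipoxygenase Alox15 had dim signals of 20 and 25 and a difference of 0.11. The largest differences on that list were higher: the macrophage and eosinophil antigen Adgre1 at 0.63, the activation antigen Cd69 at 0.58 and Cd24a at 0.54. Among 7 measured of 9 growth factors and chemokine ligands of eosinophils, 4 were below 0 and 3 above, with a median of -0.01, a sign that each other scaling turned. Il5, the main eosinophil growth factor, stood at -0.82 with dim signals of 33 and 21, Il3 at -0.55 and Ccl5 at 0.35. Of the eotaxins, Ccl24 had dim signals of 36 and 40 and a difference of -0.01, and Ccl11 and Ccl26 were not well above background on both arrays.

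The gene families of the members gave mixed values as well. The list of other Ear and RNase A family genes held 22 names. Ear5 and Rnase2b are both among them, though the probe named Ear5 on the array is Rnase2b in RefSeq. Of 8 measured genes, 5 were below 0 and 3 above, with a median of -0.22. Ang stood at -0.82 with signals of 41 and 26 and Rnase6 at -0.60 with signals of 2883 and 2136. Rnase4 stood at 3.19, the 1 gene on the list past the 2-fold rule, but 6 of the 8 spots around its spot also had signals at least 4-fold apart on the arrays. Of 6 measured among 8 haem peroxidases, 3 were below and 3 above 0, with a median of 0.04. The collagen-linking peroxidase Pxdn stood at -0.58, the cyclooxygenase Ptgs2 at 0.42 with dim signals of 28 and 41, and Mpo at 0.40. Of 5 measured among 8 other Siglec genes, 1 was below and 4 above 0, with a median of 0.07. Cd33 was at 0.39, Siglece at 0.09 and Siglech at 0.07. The Siglech value averages 2 probes of unlike brightness. The mean level over both probes was 4.33 with control siRNA and 4.55 with GATA1 siRNA. Its brighter probe had signals of 94015 with control siRNA and 92366 with GATA1 siRNA. With only the brightest probe of each gene, the Siglec median was 0.01. Of 6 measured among 10 chemokine receptors listed with the Ccr3 cluster, 3 were below and 3 above 0, with a median of 0.04. Ccr2 was at 0.72. Cxcr6 at -0.49 and Ccr8 at 0.41 were dim, with signals of 26 and 21 and of 22 and 33. With normexp background correction the medians of the peroxidases and the Siglec genes were -0.01 and -0.04.

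Transcription factors of the eosinophil path were mostly near 0 apart from the target. Of 13 measured, 8 were below 0 and 5 above, with a median of -0.03, or 0.03 with the authors' table. Gata1 was the 1 gene on this list that was 2-fold lower, and Id1 stood at 0.51. Irf8, a factor of monocytes and eosinophils, stood at 0.42 with dim signals of 34 and 51.

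Markers of mast cells and of other cell types differed between these arrays too, and their part in the differences above was not tested. Of 17 names on the mast cell list, 15 matched a probe, and all 15 were measured. The names Mcpt5 and Mcpt6 matched no probe, which does not show that these genes are absent from the array. Of the 15, 11 were below 0 and 4 above, with a median of -0.12. The tryptases Tpsab1 at -2.11 and Tpsg1 at -1.11 were the 2 that were 2-fold lower, and the chymase Mcpt4 stood at -0.88. The summed level of the mast cell list was 3627 with control siRNA and 3165 with GATA1 siRNA. Such a sum follows its bright probes, among them Tpsg1 with levels of 416 and 192 and Tpsb2 with 371 and 254. All 7 basophil markers were measured, 2 below and 5 above 0, with a median of 0.12 and a summed level of 381 and 420. Mcpt8 stood at 0.29, Prss34 at 0.24 and Itga2 at 0.45, the last with dim signals of 25 and 38. Of 14 measured of 15 neutrophil markers, 1 was below and 13 above 0, with a median of 0.50 and a summed level of 201 and 225. The 1 below 0 was Ctsg at -0.37, the brightest of the list, with levels of 103 and 79.9, so this sum too follows a bright probe. Of the neutrophil markers above 0, Ltf was at 0.79, Ngp at 0.75 and Camp at 0.67. Mmp9 was not well above background on both arrays.

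Macrophage markers were also mostly higher. Of 9 measured of 10, 1 was below 0 and 8 above, with a median of 0.52 and a summed level of 14.9 and 23.4. The membrane protein Ms4a7 at 1.09 and the lysosomal protein Cd68 at 1.07 were 2-fold higher, and the chemokine receptor Cx3cr1 stood at -0.94. Of 5 measured of 8 megakaryocyte and erythroid markers, 2 were below and 3 above 0, with a median of 0.05 and a summed level of 50.4 and 41.4. Epor, the erythropoietin receptor, at -1.58 and the platelet glycoprotein Gp1ba at -1.02 (levels of 25.2 and 12.4) were 2-fold lower, Hba-a1 stood at 0.69, and the erythroid factor Klf1 was not well above background on both arrays. The median of the members stood below 0 and the medians of the neutrophil, macrophage and basophil lists above it under each scaling and background correction tried. Those of the other eosinophil genes (0.0045 to 0.14), the Ccr3 cluster receptors and the megakaryocyte and erythroid list also stayed above 0. The mast cell list (-0.16 to -0.056) and the other Ear and RNase A family list (-0.32 to -0.16) stayed below 0, and the remaining lists took both signs.

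**Figure D5:**
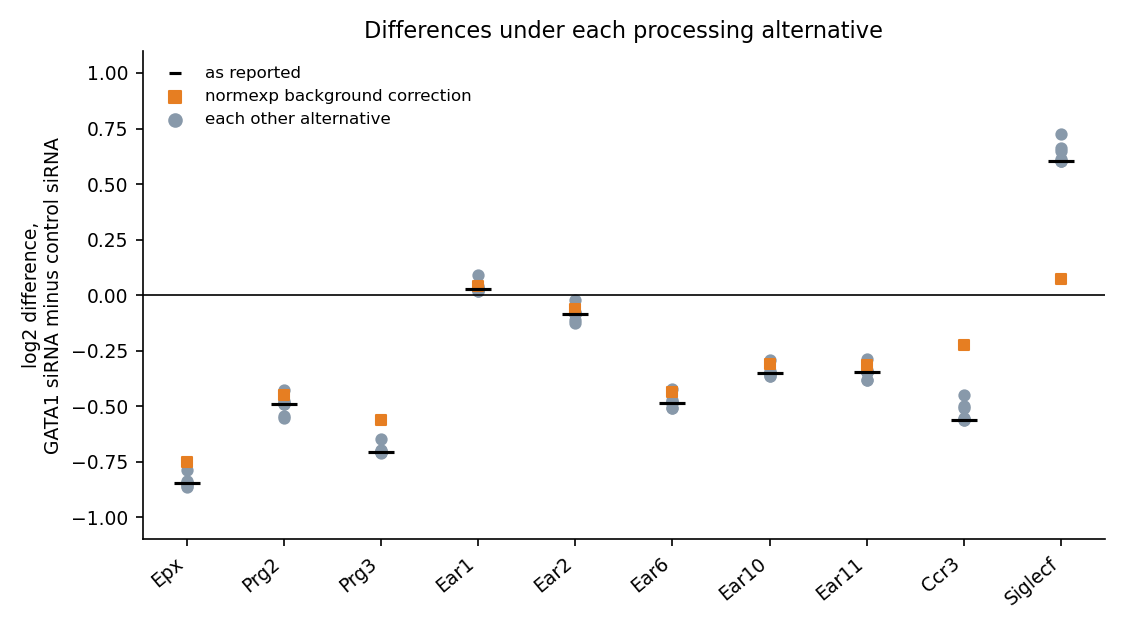
Log2 difference of each probe measured on both arrays, GATA1 siRNA minus control siRNA, as reported (black bars), with normexp background correction (orange squares) and with each other alternative of scaling, filter or spot choice (grey points). Epx stays between -0.86 and -0.75 and Prg3 between -0.71 and -0.56, while the first, dim Siglecf probe ranges from 0.07 to 0.72 (the second is not drawn) and Ccr3 from -0.56 to -0.23.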

How the data were processed

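Total RNA (100 ng per array) was amplified and labelled with Cy3 and hybridised to 2 arrays, 1 per siRNA. Per the file headers, the spot intensity values were obtained by the authors with Agilent Feature Extraction 10.7.3.1, background-subtracted and detrended, with no scaling between arrays. A second deposited table holds normalized intensity, which equals each array's processed signal divided by its median. It served as an alternative, and 2 further columns of that table were not used. Probe coordinates are mm9, per the file headers.

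Control spots and 234 outlier spots were left out, repeat spots were averaged as log2, and each array was divided by its 75th percentile. A probe was measured where it was well above background on both arrays, and the measured probes of a gene were averaged. Gene names came from a RefSeq table (GRCm38.p6) by accession (27225 probes), symbol (3580) or synonym (565), and 24289 probes kept the file's name. Groups follow the transfection label. With 1 array per group there was no test, and sizes of 2-fold and 1.5-fold describe the data. The error is that of the scanner software, combined over both arrays. The number of arrays limits the precision.

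The members, the 12 lists and the alternatives were chosen with earlier results of these data known. Every member probe is named, with Gata1 and, from each list, the 3 measured genes with the largest absolute difference and every gene past 2-fold. Il5ra, Alox15, Ccl24, Tpsb2, the related Ear genes, neighbours within 100 kb and unmeasured list members were named in addition, after their values were seen, and some list members and neighbours are not reported here. Alternatives were scaling to the median of probes above background, quantile normalization, the authors' table, loess on mean level (span 0.4), normexp background correction (offset 50, limma 3.58.1 in R 4.3.3), no filter or a stricter one on dim probes (only probes whose mean level reached the 25th percentile), outlier spots kept, and 748 spots at disturbed places left out (at least 2 of the 8 adjacent spots differing 4-fold between the arrays). For genes with several probes the brightest was also used. On simulated data the scaling recovered 200 of 200 planted differences within 0.5 (log2). Each planted difference was larger than that of any member, and the simulated noise was smaller than that of dim repeat spots. This checks the computation and says nothing about how well differences of the members' size are recovered. Longest shared runs between probe sequences and GATA words in RefSeq promoter windows were found by exact matching.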

Additional observations from a re-analysis of the deposited data

How the results depend on the processing

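No alternative turned the direction of a probe measured on both arrays or brought one past 2-fold. Without the filter on dim probes, the second Siglecf probe enters, and the mean of both Siglecf probes, an alternative added after seeing the data, turned from 0.60 to -0.17. Of the recomputed values, 235 kept their size within the error or 1.5 times, 12 moved and 1 reversed. With normexp background correction, Siglecf stood at 0.073 and Ccr3 at -0.23, and 44 probes were 2-fold lower and 27 higher, against 176 and 97 as reported. Without the filter on dim probes these were 2375 and 1492, with the stricter filter 93 and 50, and without spots at disturbed places 148 and 62. At 1.5-fold, 3 members were called, and 918 probes were lower and 551 higher. The cause was not tested, except that the filters change how many probes enter and the size rule what is called. Higher calls were 35.5% of all 2-fold calls as reported, 45.5% with the authors' table and 44.4% with loess. The median of the members ranged from -0.48 to -0.31. Siglecf and Ccr3 were too dim for the stricter filter, which left 8 member probes. No paired analysis was possible because each group is 1 array. The dim signals of Siglecf and Ccr3, close to the lowest signals called well above background (15.2 and 13.3), limit what can be read from these genes.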

Other observations

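Near Ear11, an unnamed probe 33215 bases away (chr14:51908279-51908338, mm9) had signals of 48.29 with control siRNA and 24.83 with GATA1 siRNA, a difference of -1.13. It was the 1 probe among the 34 neighbours that was 2-fold lower. It was chosen after its value was seen.

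Both probes of Adgre1, which is used to identify mouse macrophages and eosinophils, were higher, at 0.66 and 0.60. The probes of Siglecg, which lies near Siglecf, were not well above background on both arrays.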
